A study of Mus musculus with 47 samples.

Results

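Metabotropic glutamate receptors and the Homer scaffold proteins that hold some of them at the synapse were followed in the hippocampus of young and old mice given vehicle or platelet factor 4 (PF4). The members were the rows for Grm2, Grm3, Grm4, Grm5, Grm7, Grm8, Homer1, Homer2 and Homer3, taken by gene symbol, 9 of the 35486 genes in the count table. All 9 passed the filter on low counts, which 17778 genes passed. Grm2 was lower in old than in young mice, by 23.7% in the vehicle groups. No other member passed the test for age, and none passed it for PF4.

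The samples were hippocampi of 47 male mice of the C57BL/6J background. The groups were Young Veh (n = 13, vehicle, 3.75 to 5.26 months old), Young PF4 (n = 12, PF4, 4.08 to 5.03 months), Old Veh (n = 12, vehicle, 17.47 to 19.97 months) and Old PF4 (n = 10, PF4, 17.4 to 20.23 months). The methods give phosphate-buffered saline as the vehicle and mouse PF4 as the agent, both injected into the peritoneum around behavioural testing, so the controls were injected too. Library numbers in the labels are 1 to 12 for Old Veh, 13 to 23 for Old PF4 and 24 to 48 for both young groups mixed, so number order and age, or number order and PF4 in old mice, cannot be told apart.

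Metabotropic glutamate receptors are G-protein-coupled receptors that tune transmission rather than carry it. Group I receptors, here Grm5, sit mostly behind the synapse and act through Gq and phospholipase C. Group II receptors (Grm2 and Grm3) and group III receptors (Grm4, Grm7 and Grm8) act through Gi/o and in neurons mostly reduce transmitter release. Homer proteins bind the tail of group I receptors and tie them to inositol trisphosphate receptors and Shank scaffolds, while a short form of Homer1 that is induced by neuronal activity breaks these links. Reads were counted per gene, so the long and short forms of Homer1 cannot be told apart here.

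The sequences shown are those upstream of Grm2, the only member that passed a test, and of Homer1, the member known for induction by activity. Each is the 150 bases before a transcription start in RefSeq (GRCm38.p6), written 5′ to 3′ in the direction of transcription, and neither overlaps an annotated exon. The Grm2 window lies at chr9:106656110-106656259 on the minus strand, with capitals for GGGCGG (the GC box) found on either strand. The Homer1 window lies at chr13:93303607-93303756 on the plus strand, with capitals for TGACG (the core of the cyclic AMP response element) found on either strand. In the GENCODE annotation the Homer1 gene begins earlier, at 93299635. This window is thus upstream of a RefSeq start and inside the GENCODE gene.
Grm2 upstream: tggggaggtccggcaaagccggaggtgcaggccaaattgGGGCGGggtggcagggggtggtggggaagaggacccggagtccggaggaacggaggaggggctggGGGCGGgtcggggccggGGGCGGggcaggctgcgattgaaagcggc
Homer1 upstream: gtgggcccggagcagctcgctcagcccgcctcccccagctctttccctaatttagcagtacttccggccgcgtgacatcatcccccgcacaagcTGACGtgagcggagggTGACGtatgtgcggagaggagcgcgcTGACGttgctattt
The Grm2 window held the GC box 3 times, and it held no TGACG. Of 32851 such windows, 5.57% held the GC box at least 3 times. The box was more frequent in a Homer2 window (8 times) and in the Homer3 window (4 times), and Grm3, Grm7 and Grm8 had windows with 1. Annotated exons cover 19 bases of that Homer2 window and all 150 of the Homer3 window. Whether the number of boxes goes with the age values was not tested. The Homer1 window held TGACG 3 times, at 56, 40 and 14 bases before the start, and 0.381% of windows held it at least that often. Of the other members' windows, 1 of Grm8 held TGACG, 1 time. RefSeq gives a second Homer1 start, whose window at chr13:93307884-93308033 held no TGACG and had 47.3% G and C. G and C made up 74% of the Grm2 window and 62.7% of the Homer1 window, against a median of 54% over all windows. A match describes letters in these windows and does not show binding. RefSeq windows were found for 7 of the 9 members, without Grm4 and Grm5.

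Library totals ranged from 2242879 to 21112908 counts (median 10374007). Markers of dentate granule, CA1, CA2 and CA3 neurons were present in all libraries, as the label hippocampus requires. Of the glial markers, 1 of 5 for astrocytes (Gfap), 1 of 5 for oligodendrocytes (Mbp) and 3 of 5 for microglia were called higher with age over both treatments, in which 3.31% of all genes were called higher. In vehicle mice 0 of these 15 were called higher by edgeR, against 2.16% of all genes. An unadjusted p below 0.05 with a higher value was found for 4 of them and for 8.43% of all genes, and the astrocyte marker Aldh1l1 was called lower (-0.20, adjusted p = 0.0465). In PF4-treated mice 1 of the 15 was called higher with age (Gfap, 0.49, adjusted p = 0.00179), against 0.304% of all genes, and 10 of the 15 had an unadjusted p below 0.05 with a higher value, against 4.99% of all genes. Their part in the age results was not tested. A choroid plexus score, the mean log2 CPM (reads of a gene scaled to library size) of 10 marker genes, varied widely and had medians of 5.07 in Young Veh, 5.44 in Young PF4, 0.91 in Old Veh and 1.3 in Old PF4. A length index was also computed, the mean centred log2 CPM of genes with long transcripts minus that of genes with short transcripts. The 3 lowest libraries on it were Young Veh 4 (-0.348), Old PF4 8 (-0.228) and Young PF4 4 (-0.163). Young Veh 4 and Young PF4 4 were each the lowest library of their group for 6 of the 9 members, and Old PF4 8 for 4. Age values of Grm2, those of Grm3 within each treatment and the PF4 value of Grm2 in old mice are given with and without them.

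**Figure D1:**
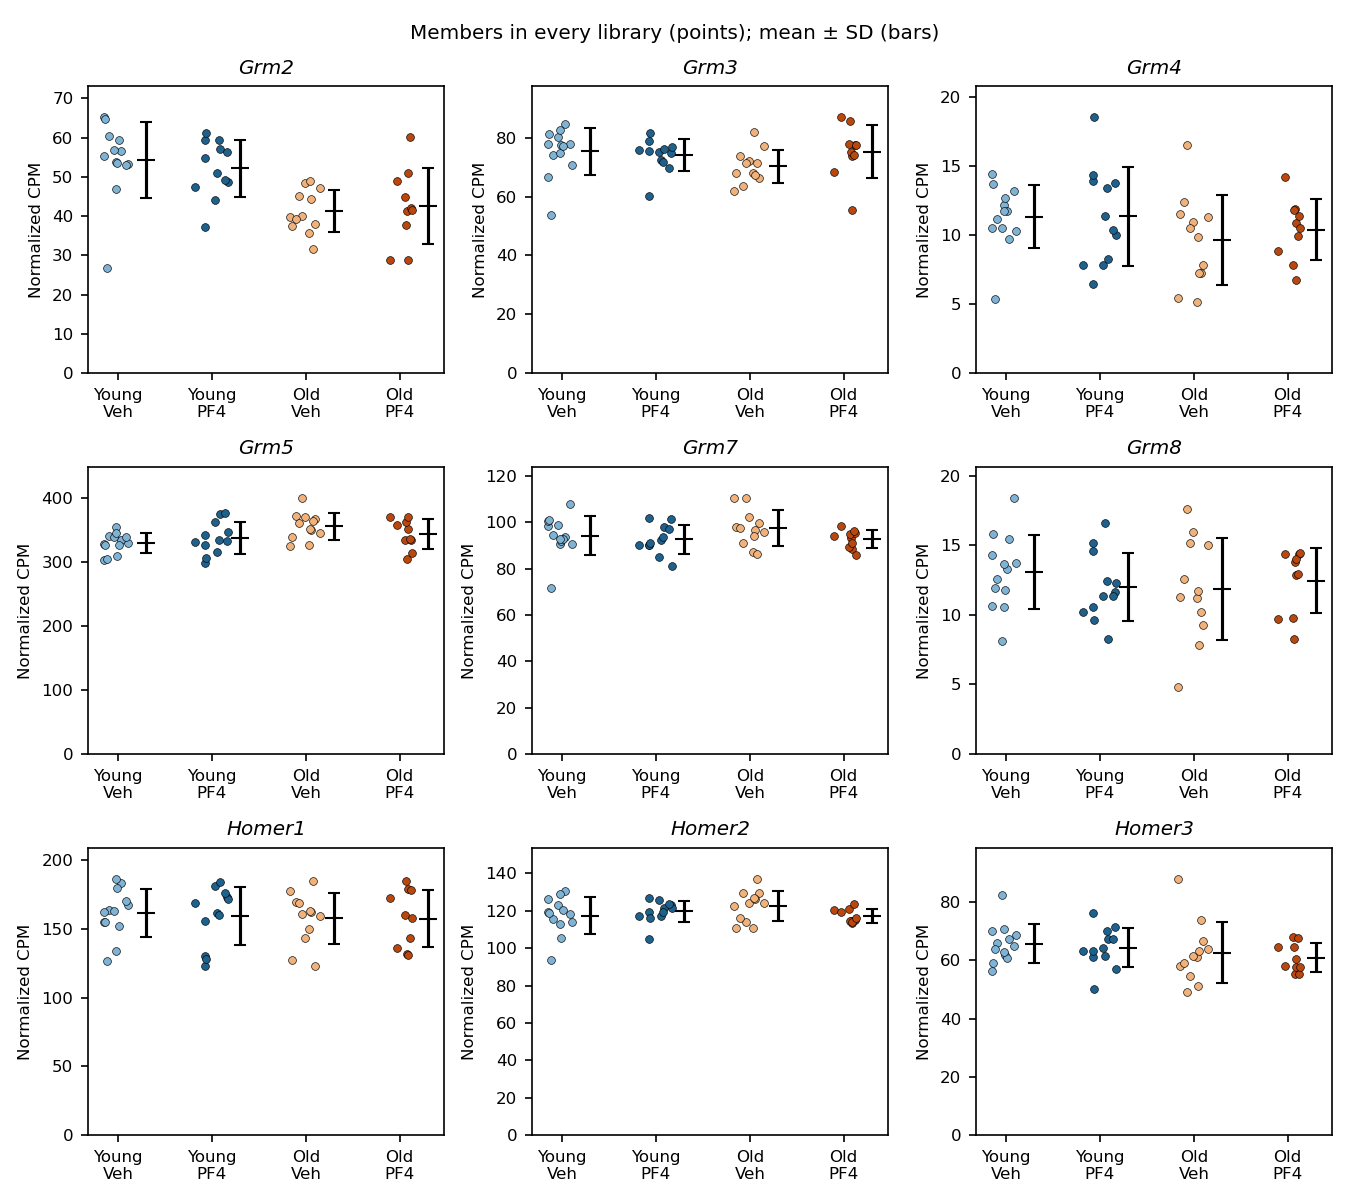
Each panel shows 1 member, with normalized CPM on the vertical axis from 0 and the 4 groups on the horizontal axis. Points are libraries and the bars beside them are the mean ± SD. Grm2 is lower in both old groups, and the lowest Young Veh point for Grm2 (26.8 CPM) is library Young Veh 4.

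Of the group II receptors, Grm2 was called with age and Grm3 was not. Grm2, a presynaptic autoreceptor known from mossy fibre and perforant path terminals, lies on chromosome 9 at 106643095 to 106656082 (GRCm38, minus strand). Its normalized level ran from 26.8 to 65.3 CPM in Young Veh (median 55.3) while Young PF4 libraries spanned 37.1 to 61.3 CPM with a median of 53.0. In old mice it ran from 31.6 to 48.9 CPM in Old Veh (median 39.9) and from 28.8 to 60.3 CPM in Old PF4 (median 41.8). The groups overlapped, since Young Veh 4 lay below every Old Veh library, but all 12 Old Veh libraries were below the Young Veh median and 9 of 10 Old PF4 libraries were below the Young PF4 median. Mean levels were 54.3 ± 9.69 CPM in Young Veh, 52.2 ± 7.20 in Young PF4, 41.3 ± 5.43 in Old Veh and 42.5 ± 9.64 in Old PF4 (SD).

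The age comparison in vehicle mice gave a log2 fold change of -0.39 for Grm2 (SE 0.101, 95% interval -0.59 to -0.19, adjusted p = 0.0201 by edgeR's quasi-likelihood test). Of all genes tested, 2.77% were called in this comparison and 0.607% were called lower. Grm2 was the single member called, 1 of 9. In bulk tissue, fewer cells of a type and less RNA per cell cannot be told apart. The PF4-treated mice, which share no animal with the vehicle mice, gave a log2 fold change of -0.28 (SE 0.107, 95% interval -0.50 to -0.07), which did not pass (unadjusted p = 0.0115, adjusted p = 0.386, edgeR). No member was called in that comparison, in which 0.332% of genes were called, and 1 of the 9 members (Grm2) had an unadjusted p below 0.05, as did 8.27% of genes. DESeq2 also called 0 members there.

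Averaged over both treatments, with all 47 mice, Grm2 fell by 0.34 on the log2 scale in old mice (SE 0.0734, 95% interval -0.48 to -0.19, adjusted p = 0.00298, edgeR), and 21 of 22 old libraries were below the young median. In this comparison 4.71% of genes were called and 1.41% were called lower, and Grm2 was again the single member called. The difference between the age effects in the 2 treatments was 0.11 for Grm2 (95% interval -0.18 to 0.40, adjusted p = 1, edgeR), so an age effect confined to vehicle mice was not shown. Leaving out 1 library moved that difference to between 0.0307 (without Old PF4 6) and 0.176 (without Young Veh 4).

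The Grm2 call in vehicle mice held whichever of its 25 libraries was left out, with log2 fold changes from -0.45 to -0.36. The highest adjusted p of these fits was 0.0407 (edgeR). Without the 8 libraries of lowest depth, 4 of which were Old Veh, the fold change was -0.38 and the adjusted p was 0.0912, past the threshold, while the call over both treatments held (-0.31, adjusted p = 0.024). Without the 3 libraries of lowest length index, an alternative chosen after the data were seen, the vehicle value was -0.45 (adjusted p = 6.44e-05), that under PF4 -0.26 (adjusted p = 0.17) and that over both treatments -0.355 (adjusted p = 1.49e-05).

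**Figure D2:**
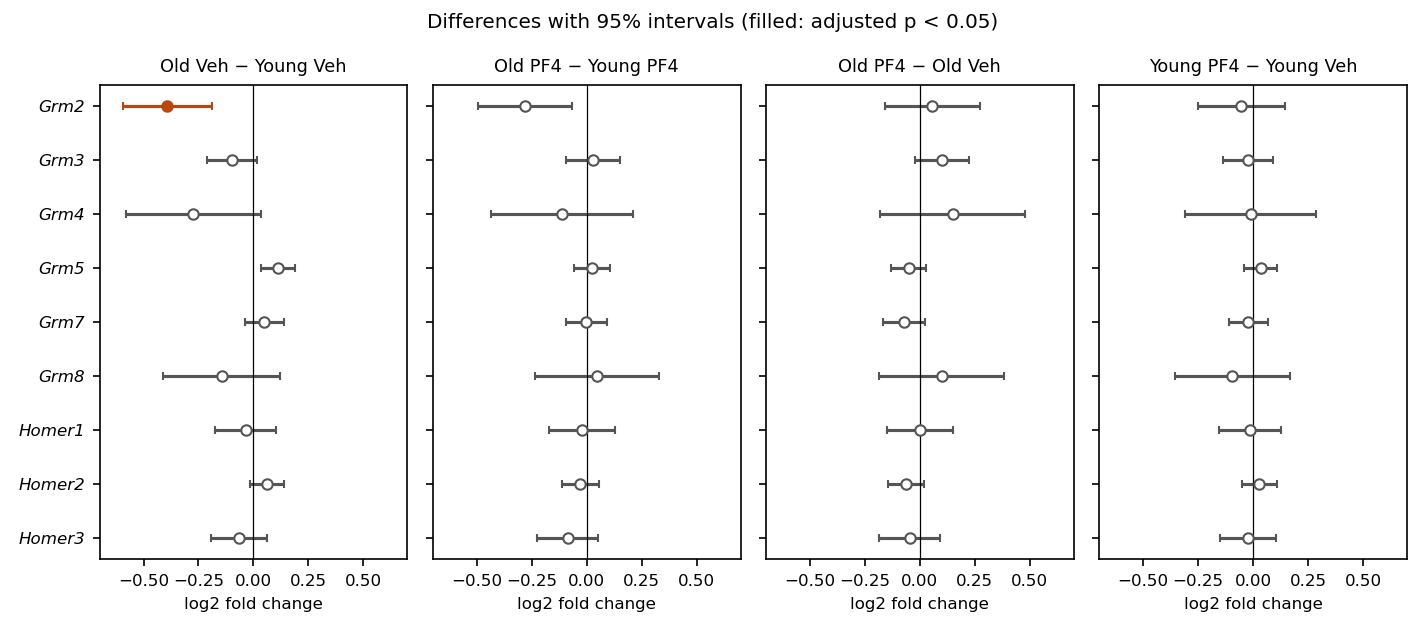
Log2 fold changes (horizontal axis) of the 9 members with 95% intervals, in 4 comparisons. The filled point marks the value with an adjusted p below 0.05, Grm2 in Old Veh against Young Veh at -0.39, and every interval in the PF4 comparisons at right crosses 0.

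Grm3, the other group II receptor, is expressed by astrocytes as well as neurons. Its level had a Young Veh range of 53.8 to 84.9 CPM (median 77.5), a Young PF4 range of 60.2 to 81.8 (median 75.3), an Old Veh range of 61.9 to 81.9 (median 69.8) and an Old PF4 range of 55.6 to 87.2 (median 76.3). Of the Old Veh libraries 11 of 12 lay below the Young Veh median, but the ranges overlapped and the log2 fold change was -0.10 (95% interval -0.21 to 0.02, adjusted p = 0.428, edgeR). This value moved both ways with the setting. With the CA1 score as a covariate it was -0.04 (adjusted p = 0.649), and with the replicate block or the dentate granule or thalamus score it was -0.08. With the length index as a covariate it was -0.16 (adjusted p = 0.0144), and without the 3 libraries of lowest length index it was -0.13 (adjusted p = 0.0443), so that 2 members were called in vehicle mice under either of these last settings, which called 901 and 888 genes in place of 492. In PF4-treated mice the age difference of Grm3 was 0.03 (95% interval -0.09 to 0.15), with values from 0.00163 (without Young PF4 4) to 0.0747 (without Old PF4 8) when 1 library was left out and 0.05 without the 3 libraries.

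Grm5, the group I receptor that signals through Gq and is the main partner of Homer proteins, ran from 302.9 to 354.4 CPM in Young Veh (median 329.9) and from 325.1 to 400.3 CPM in Old Veh (median 355.8). Of the Old Veh libraries 6 of 12 lay above every Young Veh library and 10 lay above their median. The log2 fold change was 0.11 (SE 0.0379, 95% interval 0.04 to 0.19), with an unadjusted p of 0.00502 and an adjusted p of 0.103 in edgeR, which did not pass. In Young PF4 the level ran from 299.1 to 377.2 CPM (median 333.7) and in Old PF4 from 304.3 to 370.8 CPM (median 344.2), a log2 fold change of 0.03 (95% interval -0.06 to 0.11) that was 0.0075 without Young PF4 4. Over both treatments the value was 0.07 (SE 0.0277, unadjusted p = 0.0172, adjusted p = 0.151, edgeR), which was not called. With the CA1 marker score as a covariate, chosen after the data were seen, the vehicle value was 0.13 (adjusted p = 0.029) and that over both treatments 0.08 (adjusted p = 0.0445), which were called. With the choroid plexus score as a covariate the vehicle value was 0.07 (adjusted p = 0.406) and that over both treatments 0.03 (adjusted p = 0.67). Within groups Grm5 was lower where the choroid plexus score was higher (r = -0.47, permutation p = 0.00131, adjusted p = 0.00958, and rho = -0.44, permutation p = 0.00339, adjusted p = 0.0283), and r was -0.49 without the 2 libraries farthest from the median score. The part of choroid plexus in the Grm5 values was not tested.

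The group III receptors were not called in any comparison. Grm7, which sits in the active zone of presynaptic terminals, ran from 71.7 to 107.8 CPM in Young Veh and from 86.3 to 110.5 CPM in Old Veh, with medians of 93.7 and 97.0 CPM and a log2 fold change of 0.05 (95% interval -0.04 to 0.14). Grm4 and Grm8 were the members with the fewest reads, from 20 to 235 and from 26 to 273 reads per library, and their intervals were the widest. Grm4 ran from 5.33 to 14.4 CPM in Young Veh (median 11.7) and from 5.16 to 16.5 CPM in Old Veh (median 10.2), a log2 fold change of -0.27 (95% interval -0.58 to 0.03, adjusted p = 0.398, edgeR). Grm8 ran from 8.12 to 18.4 CPM in Young Veh (median 13.3) and from 4.79 to 17.6 CPM in Old Veh (median 11.5), a log2 fold change of -0.15 (95% interval -0.41 to 0.12). Under PF4 the medians in young and old mice were 91.6 and 93.7 CPM for Grm7, 10.9 and 10.7 for Grm4 and 11.5 and 13.4 for Grm8. The highest Grm4 value, 18.6 CPM, was in library Young PF4 8. The age differences under PF4 were -0.002 for Grm7 (95% interval -0.096 to 0.093), -0.11 for Grm4 (-0.44 to 0.21) and 0.05 for Grm8 (-0.23 to 0.33). Leaving out 1 library moved the Grm4 value to between -0.175 (without Old PF4 7) and -0.0504 (without Old PF4 8), and the Grm8 value to between 0.00138 (without Young PF4 11) and 0.0986 (without Young PF4 2). Without library Old Veh 1 the vehicle value of Grm8 was -0.07 in place of -0.15. Without Young Veh 4 that of Grm7 was 0.02 in place of 0.05. In vehicle mice the Grm4 and Grm8 intervals include the Grm2 estimate of -0.39, so a difference of that size in either gene was not excluded there.

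The Homer genes had close medians in all 4 groups. Homer1, the activity-regulated member, had medians of 163.2 CPM in Young Veh, 165.1 in Young PF4, 161.9 in Old Veh and 159.2 in Old PF4, and its libraries ran from 123.2 to 186.6 CPM over all groups. The vehicle age difference of Homer1 was -0.04 on the log2 scale (95% interval -0.18 to 0.10). Homer2 had medians of 118.9, 120.6, 124.0 and 115.6 CPM in the same order, and an age difference of 0.06 (95% interval -0.01 to 0.14). Homer3 had medians of 65.0, 63.8, 61.5 and 59.2 CPM, and an age difference of -0.07 (95% interval -0.19 to 0.06). Homer2 libraries ran from 93.5 to 137.2 CPM and Homer3 libraries from 49.2 to 88.1 CPM over all groups. Under PF4 the age differences were -0.02 for Homer1, -0.03 for Homer2 and -0.09 for Homer3 (95% interval -0.23 to 0.05). That of Homer2 was -0.049 without Young PF4 4. The vehicle values moved when 1 library was left out, to between -0.063 (without Young Veh 4) and -0.00683 (without Old Veh 12) for Homer1, from 0.037 (without Young Veh 4) upwards for Homer2, and to between -0.118 (without Old Veh 1) and -0.0331 (without Young Veh 7) for Homer3. None of the 3 was called, and all 3 vehicle intervals lie above the Grm2 estimate of -0.39.

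PF4 was tested in each age, since the study asked what the protein does in the old hippocampus. In old mice no member was called, and 0.0337% of genes were (6 genes by edgeR and 24 by DESeq2). No member had an unadjusted p below 0.05, against 6.2% of genes, and the member log2 fold changes ran from -0.07 (Grm7, 95% interval -0.17 to 0.02) to 0.15 (Grm4, 95% interval -0.18 to 0.48), and the Grm4 value was 0.0754 without Old Veh 10. Grm2, which was lower in old mice, differed by 0.06 between Old PF4 and Old Veh (95% interval -0.16 to 0.27). This value was 0.12 without the 3 libraries of lowest length index (adjusted p = 0.747) and ran from -0.0214 (without Old PF4 6) to 0.112 (without Old PF4 8) when 1 library was left out. It was 0.149 with the length index as a covariate (adjusted p = 0.761), 0.0907 without the 8 libraries of lowest depth, 0.0337 with the thalamus score and 0.0204 with the CA1 score as a covariate, none of them called. All 10 Old PF4 libraries were below the Old Veh median for Homer2, with a log2 fold change of -0.06 (95% interval -0.15 to 0.02, adjusted p = 0.91, edgeR). The Old PF4 libraries of Homer2 lay close together, from 113.7 to 123.6 CPM, within the Old Veh range of 110.8 to 137.2 CPM.

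In young mice edgeR called 0 members and 0% of genes (0 genes, with 213, or 1.2%, at an unadjusted p below 0.05, and 0 by DESeq2). The member values ran from -0.09 (Grm8, 95% interval -0.35 to 0.17) to 0.035 (Grm5, 95% interval -0.04 to 0.11). When 1 library was left out, the Grm8 value ran from -0.145 (without Young PF4 2) to -0.0419 (without Young Veh 5) and the Grm5 value from 0.0208 (without Young PF4 9) to 0.0519 (without Young PF4 4). The difference of the PF4 effects between the ages was also called for 0 members and 0% of genes (0 genes by edgeR and by DESeq2, with 707, or 3.98%, at an unadjusted p below 0.05). It ran from -0.09 (Homer2, 95% interval -0.21 to 0.02) to 0.19 (Grm8, 95% interval -0.19 to 0.58), and the Grm8 value was 0.12 without Old Veh 1. The comparisons share groups with each other, so their values are given side by side and were not correlated.

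Levels can be compared between genes only per length, here CPM per kilobase of the longest annotated transcript (mean ± SD over the 47 libraries). Grm5 was the highest at 42.4 ± 2.84, followed by Homer1 at 27.9 ± 3.32, Homer3 at 24.4 ± 2.89, Grm3 at 24.2 ± 2.36 and Grm7 at 22.4 ± 1.66. Homer2 (10.9 ± 0.687) and Grm2 (10.2 ± 2.08) came next, and Grm8 (2.58 ± 0.580) and Grm4 (2.33 ± 0.628) were the lowest. Grm5 was above Homer1 in 47 of 47 libraries, Grm7 above Homer2 in 47 and Grm2 above Grm8 in 47, so these steps were larger than the spread between mice. Homer3 was above Grm3 in 20 of 47 libraries and Grm8 above Grm4 in 32, and these neighbours were within each other's spread. Homer2 was above Grm2 in 28 of 47 libraries. Mean Grm2 lay above Homer2 in Young Veh (11.5 against 10.7) and Young PF4 (11.1 against 10.9), and below it in Old Veh (8.78 against 11.2) and Old PF4 (9.03 against 10.7), a difference in order that was not tested.

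The order depends on the length used. Per kilobase of all annotated exons together, Homer1 had 13.3 and came behind Grm5 (33.3), Grm3 (24.2), Homer3 (18.5) and Grm7 (16.0). Grm4 (1.79) then lay above Grm8 (1.25), and Grm2 (9.80) above Homer2 (9.45), in 26 of 47 libraries. Grm5 was the highest and the low pair Grm4 and Grm8 the lowest with either length.

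**Figure D3:**
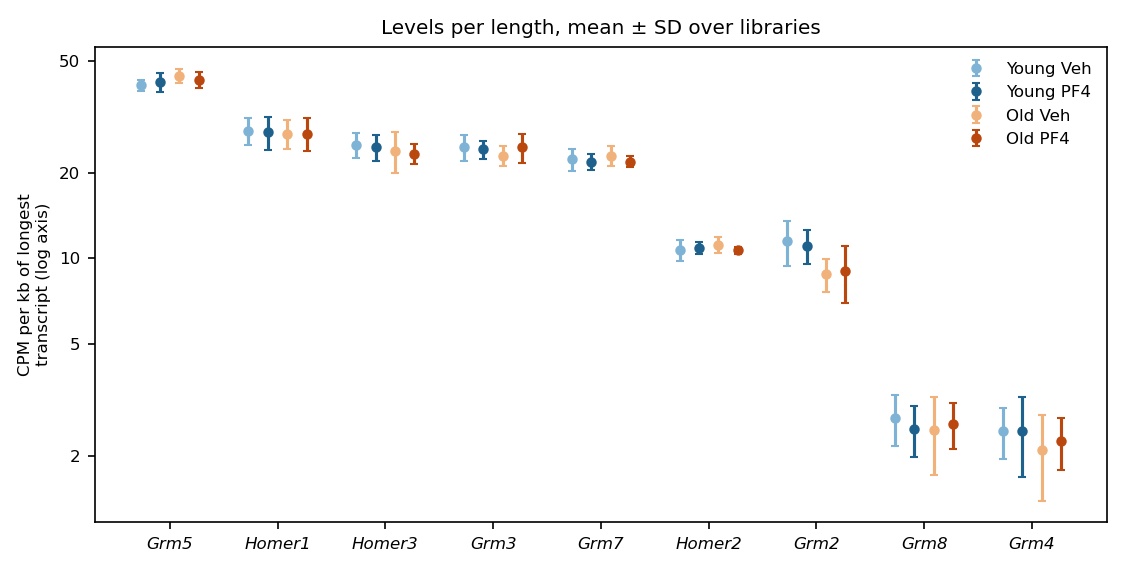
CPM per kilobase of the longest transcript on a log axis, for each member (horizontal axis, ordered by mean) in the 4 groups, as mean ± SD over libraries. Grm5 stands at the top, Grm8 and Grm4 lie at about 2 on the axis, and Grm2 shows the gap between young and old groups.

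The other members lie, on GRCm38, on chromosome 5 at 9485541 to 9725170 (Grm3), chromosome 17 at 27422387 to 27521403 (Grm4), chromosome 7 at 87584168 to 88134907 (Grm5), chromosome 6 at 110645581 to 111567230 (Grm7) and 27275119 to 28135178 (Grm8), chromosome 13 at 93299635 to 93405129 (Homer1), chromosome 7 at 81600481 to 81707527 (Homer2) and chromosome 8 at 70282827 to 70294361 (Homer3). Some members overlap annotated exons of other genes, and the libraries carried no strand information, so reads in an overlap cannot be assigned to 1 strand. Homer3 overlaps exons of Ddx49, a gene on the opposite strand that had 19894 reads in all libraries against 30877 for Homer3. Homer2 overlaps exons of the antisense gene Gm44570, which had 13158 reads against 56952 for Homer2. Grm2 overlaps the antisense gene Gm28111, which had 179 reads against 23484, and Grm7 overlaps Gm20387, with 1581 reads against 45219. Across the 47 libraries, with group means removed, Ddx49 was the second most alike gene to Homer3 (Spearman's rho = 0.72) and Gm44570 was the most alike gene to Homer2 (rho = 0.68). How reads in the overlaps were assigned is not given in the sources used here.

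The other genes most alike to each member in log2 CPM, over 47 libraries with group means removed, were as follows. Grm2 was nearest to Gm15612 (rho = 0.69), Shd (0.67) and Lgi2 (0.66). Grm3 was nearest to Arhgap32 (rho = 0.66), Edil3 (0.64) and Plcxd2 (0.64). Grm4 was nearest to Chrna4 (rho = 0.76), Tenm3 (0.74) and Slc17a6 (0.73), the last being the vesicular glutamate transporter that is abundant in thalamus. Grm5 was nearest to Lrrn3 (rho = 0.66), Ripor2 (0.58) and Ryr3 (0.57), a ryanodine receptor that releases stored calcium. Genes alike to Grm7 included Fstl4 (rho = 0.61) and Gsg1l (0.59), and Grm8 was nearest to Rxfp1 (rho = 0.70), Dpp10 (0.69) and Gm26883 (0.69). Homer1 was nearest to Eid1, Plekha3 and Arih1 (rho from 0.82 to 0.83). Homer2 had Smox (rho = 0.62) and Klhl18 (0.60) after its antisense neighbour, and Homer3 had Hpca (rho = 0.77), which encodes hippocalcin, and Ddn (0.71) beside Ddx49. These are descriptions over libraries that differ in depth and in the marker scores of neighbouring tissue.

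**Figure D4:**
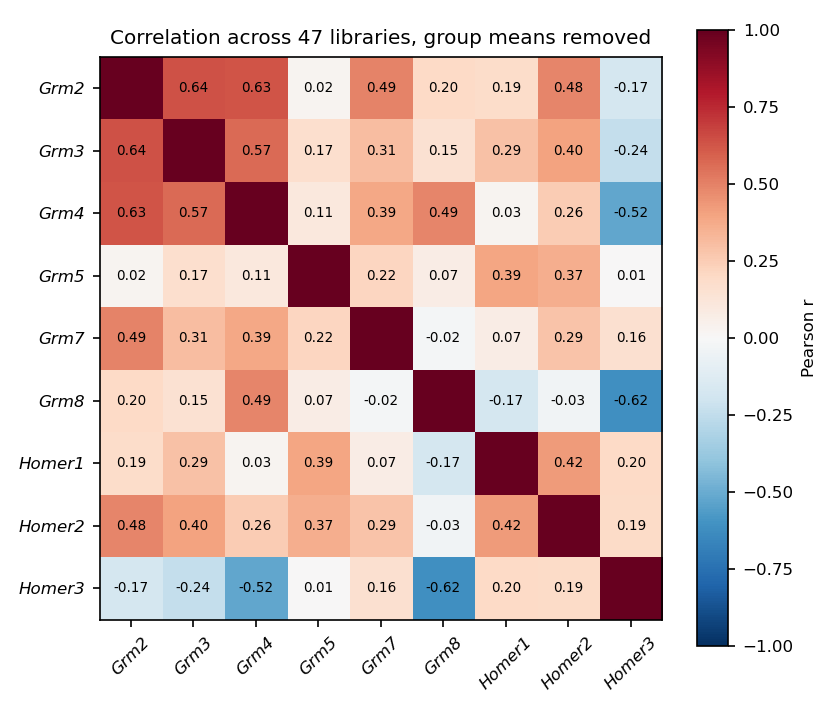
Pearson's r (colour and number) between members across 47 libraries, in log2 CPM with group means removed. Grm2, Grm3 and Grm4 form a positive block (0.57 to 0.64), and Homer3 is negative with Grm8 (-0.62) and Grm4 (-0.52).

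Members were also compared with each other across mice, in 36 pairs. Pearson's r passed in 13 pairs (adjusted p below 0.05, two-sided permutation within groups, Benjamini-Hochberg over 36), 11 of them positive, and Spearman's rho passed as well in 5. Grm2 and Grm4 had r = 0.63 (permutation p = 2e-05, adjusted p = 0.00072) and rho = 0.55 (permutation p = 0.00013, adjusted p = 0.00396), with r = 0.50 without the 2 libraries farthest from the Grm2 median and 0.42 without the 3 libraries of lowest length index. Grm2 and Grm3 had r = 0.64 (permutation p = 0.0002, adjusted p = 0.0018) but rho = 0.38 (permutation p = 0.0103, adjusted p = 0.0607), and r was 0.38 without the 2 farthest libraries and 0.23 without the 3 libraries, so this relation rests largely on those mice. Grm3 and Grm4 had r = 0.57 (permutation p = 5e-05, adjusted p = 0.0009) and rho = 0.44 (permutation p = 0.00212, adjusted p = 0.0159), with r = 0.41 and 0.31 in the same reduced sets.

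The negative pairs did not depend on the 3 libraries. Grm8 and Homer3 had r = -0.62 (permutation p = 0.00012, adjusted p = 0.00144) and rho = -0.53 (permutation p = 0.00033, adjusted p = 0.00396), with r = -0.50 without the 2 farthest libraries and -0.62 without the 3. Grm4 and Homer3 had r = -0.52 (permutation p = 0.0007, adjusted p = 0.00504) and rho = -0.46 (permutation p = 0.00221, adjusted p = 0.0159), with r = -0.62 and -0.59. Grm4 and Grm8 had r = 0.49 (permutation p = 0.00135, adjusted p = 0.0081) and rho = 0.53 (permutation p = 0.0003, adjusted p = 0.00396), with r = 0.54 and 0.57. Grm5 and Homer1, receptor and scaffold, had r = 0.39 (permutation p = 0.0105, adjusted p = 0.0324) and rho = 0.39 (permutation p = 0.0118, adjusted p = 0.0607), with r = 0.34 and 0.36.

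The other pairs in which r passed did not pass by rho, and their r was lower without the 3 libraries of lowest length index. It went from 0.49 to 0.24 for Grm2 and Grm7 (adjusted permutation p = 0.0126 for r and 0.18 for rho), from 0.48 to 0.10 for Grm2 and Homer2 (0.0119 and 0.102), from 0.40 to -0.05 for Grm3 and Homer2 (0.0324 and 0.705) and from 0.39 to 0.20 for Grm4 and Grm7 (0.0354 and 0.0952). It went from 0.37 to 0.25 for Grm5 and Homer2 (0.0235 and 0.183) and from 0.42 to 0.22 for Homer1 and Homer2 (0.0119 and 0.168).

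Several members moved with marker scores of hippocampal fields or of neighbouring tissue, again with group means removed. This family had 117 relations (9 members against 12 marker scores and the length index), in which r passed in 33 and both coefficients passed in 14, and it was added after the data were seen. The CA3 score rests on 2 genes, Bok and Cpne4. Grm8 was lower where CA3 markers were higher (r = -0.68, permutation p = 2e-05, adjusted p = 0.000585, and rho = -0.54, permutation p = 0.0001, adjusted p = 0.00234), and r was -0.53 without the 2 libraries farthest from the median score. Homer3 went the other way with CA3 markers (r = 0.62, permutation p = 4e-05, adjusted p = 0.000936, and rho = 0.55, permutation p = 0.00013, adjusted p = 0.00253), and r was 0.47 without the 2 farthest. Grm4 was higher with thalamus markers (r = 0.57, permutation p = 1e-05, the smallest these permutations can give, adjusted p = 0.000585, and rho = 0.59, permutation p = 5e-05, adjusted p = 0.00234), and r was 0.58 without the 2 farthest. Its relation to the interneuron score was about as strong (r = 0.56, permutation p = 9e-05, adjusted p = 0.0015, and rho = 0.57, permutation p = 0.0001, adjusted p = 0.00234), with r = 0.51 without the 2 farthest. Grm4 was lower with CA3 markers (r = -0.51, permutation p = 0.00045, adjusted p = 0.00439, and rho = -0.48, permutation p = 0.00071, adjusted p = 0.00913), with r = -0.43. The thalamus list holds Slc17a6, one of the genes most alike to Grm4. The thalamus score of Young PF4 8 was 6.03, against at most 4.54 in every other library, and the part of adjacent tissue in the Grm4 values was not tested.

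The length index went with Grm3 (r = 0.74, permutation p = 2e-05, adjusted p = 0.000585, and rho = 0.50, permutation p = 0.00037, adjusted p = 0.00618), and r was 0.54 without the 2 farthest libraries and 0.42 without the 3 libraries of lowest length index. It also went with Homer1 (r = 0.63, permutation p = 1e-05, adjusted p = 0.000585, and rho = 0.57, permutation p = 5e-05, adjusted p = 0.00234), with r = 0.56 and 0.50 in the same reduced sets. By r alone the length index also passed with Grm2 (r = 0.51, adjusted permutation p = 0.0207), Grm4 (0.47, 0.0109) and Homer2 (0.495, 0.0179). Without the 3 libraries of lowest length index their r was -0.038, 0.138 and 0.114.

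Homer3 moved with 3 more scores. It was higher with microglia markers (r = 0.55, permutation p = 0.00015, adjusted p = 0.00195, and rho = 0.49, permutation p = 0.00078, adjusted p = 0.00913), with r = 0.54 without the 2 farthest libraries. It was lower with thalamus markers (r = -0.53, permutation p = 8e-05, adjusted p = 0.0015, and rho = -0.46, permutation p = 0.00175, adjusted p = 0.0186), with r = -0.48, and with choroid plexus markers (r = -0.41, permutation p = 0.00588, adjusted p = 0.0246, and rho = -0.45, permutation p = 0.00261, adjusted p = 0.0235), with r = -0.49. Grm7 was lower with choroid plexus markers (r = -0.46, permutation p = 0.00152, adjusted p = 0.0105, and rho = -0.55, permutation p = 9e-05, adjusted p = 0.00234), with r = -0.42 without the 2 farthest. Homer1 was lower with oligodendrocyte markers (r = -0.50, permutation p = 0.0006, adjusted p = 0.0054, and rho = -0.46, permutation p = 0.002, adjusted p = 0.0195), with r = -0.50. Grm3 was lower with dentate granule markers (r = -0.38, permutation p = 0.00612, adjusted p = 0.0247, and rho = -0.50, permutation p = 0.00046, adjusted p = 0.00673), with r = -0.35. With the relation of Grm5 to the choroid plexus score given above, these are the 14 that passed by both coefficients.

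Grm2 had r = 0.60 with the CA1 score (permutation p = 0.00033, adjusted p = 0.00386) and rho = 0.38 (permutation p = 0.0135, adjusted p = 0.0868), but r was 0.36 without the 2 farthest libraries and 0.23 without the 3 libraries of lowest length index, which had CA1 scores of 6.87, 6.87 and 7.07. By r alone the CA1 score also passed with Grm3 (r = 0.63, adjusted permutation p = 0.00195), Grm4 (0.49, 0.00874), Homer1 (0.49, 0.00543) and Homer2 (0.44, 0.0207). Their r was 0.202, 0.195, 0.26 and 0.09 without the 3 libraries of lowest length index. Group medians of the CA1 score were 7.42 in Young Veh, 7.40 in Young PF4, 7.34 in Old Veh and 7.31 in Old PF4, and none of the 3 CA1 markers was called with age. With the CA1 score as a covariate the age difference of Grm2 in vehicle mice was -0.28 (adjusted p = 0.0358) in place of -0.39, and over both treatments -0.23 (adjusted p = 0.0112). Both were still called. With the thalamus score they were -0.36 (adjusted p = 0.0411) and -0.31 (adjusted p = 0.00681), and with the choroid plexus score -0.44 (adjusted p = 0.0127) and -0.38 (adjusted p = 0.00184). Grm2 had r = -0.05 with the dentate granule score (permutation p = 0.738, adjusted p = 0.863, rho = -0.18, permutation p = 0.247, adjusted p = 0.498), and none of the 4 dentate granule markers was called with age. In vehicle mice the age differences of these 4 markers ran from -0.183 to 0.274 (median 0.137, against -0.013 over all genes). Their smallest adjusted p there was 0.0559 (Plk5, edgeR). The part of cell composition in the Grm2 values was not tested.

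**Figure D5:**
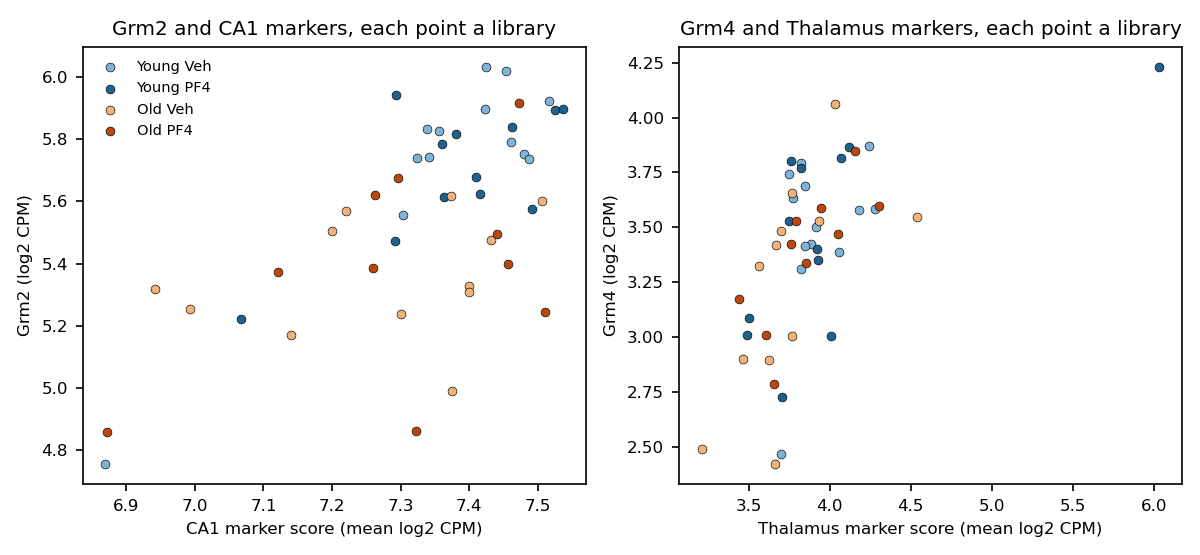
Each point is a library. Left, Grm2 (log2 CPM) against the CA1 marker score, where the 3 libraries of lowest length index are low in Grm2, and Old Veh 1 and Old Veh 12, with CA1 scores of 6.94 and 6.99, are near the Old Veh median of 39.9 CPM. Right, Grm4 (log2 CPM) against the thalamus marker score, where 1 Young PF4 library stands apart at 6.03.

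The signalling partners were examined in lists of 57 genes, all of which were tested. In the vehicle age comparison 3 of 57 were called higher and 0 lower, where 2.16% of all genes were called higher. Over both treatments 2 of 57 were called higher and 0 lower, close to the 3.31% of all genes. In the other comparisons 0 of 57 were called by edgeR. Plcb1, a phospholipase C that Gq activates downstream of group I receptors, had means of 304.2 ± 22.6 CPM in Young Veh and 337.4 ± 20.8 in Old Veh (SD), a log2 fold change of 0.15 (SE 0.043, adjusted p = 0.0441, edgeR), and was 0.14 higher over both treatments (adjusted p = 0.00489). Kcnj6, a potassium channel opened by Gi/o-coupled receptors, rose by 0.22 in vehicle mice (SE 0.0642, adjusted p = 0.0442, edgeR) and differed by 0.03 between the PF4 groups (adjusted p = 0.967). Ryr3 rose by 0.18 in vehicle mice (SE 0.0521, adjusted p = 0.0443, edgeR) and by 0.13 over both treatments (adjusted p = 0.0395).

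These calls sat near the threshold. In vehicle mice each of the 3 was called in 12 of the 25 fits that left out 1 library. Over those fits the log2 fold change ran from 0.128 to 0.164 for Plcb1 (highest adjusted p 0.0929), from 0.188 to 0.248 for Kcnj6 (0.101) and from 0.148 to 0.197 for Ryr3 (0.108). With the choroid plexus score as a covariate the values were 0.11, 0.18 and 0.15, none called (adjusted p = 0.208, 0.147 and 0.164). Without the 8 libraries of lowest depth they were 0.15, 0.24 and 0.17, none called (adjusted p = 0.13, 0.116 and 0.166). Over both treatments Plcb1 was called in 47 of 47 such fits and Ryr3 in 30, but Plcb1 was lost with the choroid plexus score as a covariate (0.10, adjusted p = 0.081) and without the 8 libraries of lowest depth (0.12, adjusted p = 0.0598).

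By list, the median age difference in vehicle mice was 0.045 for the 12 genes of the Gq arm, 0.02 for the 13 of the Gi/o arm, 0.09 for the 12 Homer-linked scaffold genes, 0.01 for the 12 receptor-binding regulators and 0.06 for the 8 activity-induced genes, against -0.01 over all genes tested. Under PF4 the list medians were 0.02, 0.01, -0.03, 0.04 and 0.11 in the same order, against 0.004 over all genes tested. The difference between the list medians of the 2 treatments was not tested. In the comparison of Old PF4 with Old Veh the smallest adjusted p of any list was that of Adcy1, a calcium-stimulated adenylyl cyclase, at 0.386 (log2 fold change -0.17, edgeR). Dlgap2, a scaffold protein of the postsynaptic density, had -0.18 (adjusted p = 0.531). Among activity-induced genes, the class to which the short Homer1 form belongs, Npas4 had the smallest p over both treatments in the age comparison (0.38, adjusted p = 0.151) and Fosb in old mice given PF4 (0.23, adjusted p = 0.895). Among receptor-binding regulators it was Pick1, which binds the tail of Grm7 (-0.10, adjusted p = 0.137), and Siah1a (0.07, adjusted p = 0.978). Mean levels of Npas4 were 2.55 CPM in Young Veh, 1.86 in Young PF4, 2.51 in Old Veh and 3.22 in Old PF4. Its value over both treatments thus averages unlike age differences.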

How the data were processed

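Hippocampal RNA of 47 mice was sequenced from unstranded Smart-Seq2 and Nextera XT libraries. The authors deposited a table of whole-number counts for 35486 genes that had not been normalized. Per the submitters' processing notes, reads were trimmed with Trim Galore 0.3.7, aligned with STAR 2.5.3a to GRCm38 and analysed with DESeq2, and the methods state that libraries of low coverage were left out. The gene counter is not given in the sources used here. Columns were matched to samples by their titles, and groups came from the sample titles.

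Counts were tested with edgeR 4.0.16 (R 4.3.3), quasi-likelihood test, TMM normalization and filterByExpr, in a single fit of the 4 groups, on 17778 genes. Calls had a Benjamini-Hochberg adjusted p below 0.05 over all genes tested, and intervals are 95% t intervals of the log2 fold change. DESeq2 1.42.0, the tool of the methods, was an alternative. Normalized CPM used TMM library sizes, and log2 CPM a prior count of 2. Lengths and positions came from GENCODE vM21, which is on GRCm38. The length index used genes whose longest transcript had at least 4594 or at most 2006 bases. Marker scores are mean log2 CPM of a list. Correlations used 100000 permutations within groups (numpy 2.4.6). Counts per library set the precision: totals ran from 2242879 to 21112908. The p-values measure the spread between single mice. Steps were tested on simulated counts.

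The members, lists and tests were chosen with earlier results of these data known. Named are the 9 members, every pathway gene called in a comparison, the gene of smallest p in each list for age over both treatments and for PF4 in old mice, and the 3 genes most like each member by Spearman's rho, of which 1 is not reported here. The genes Grk2 and Grk3 were matched through their older symbols. Alternatives were DESeq2's test and size factors, upper-quartile factors, other filters, the groups of a comparison alone, a replicate block, covariates (length index, choroid plexus, dentate granule, thalamus and CA1 scores), and leaving out libraries. The thalamus and CA1 covariates and leaving out the 3 libraries of lowest length index were added after the data were seen.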

Additional observations from a re-analysis of the deposited data

How the results depend on the processing

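The number of members called was the same whichever library was left out (1 in vehicle mice, 1 over both treatments, 0 elsewhere). In Old Veh against Young Veh it was 2 with the length index covariate (Grm2 and Grm3), 2 with the CA1 covariate (Grm2 and Grm5), 2 without the 3 libraries of lowest length index (Grm2 and Grm3) and 0 without the 8 libraries of lowest depth. Over both treatments it was 2 with the CA1 covariate (Grm2 and Grm5). Genes called in the vehicle age comparison numbered 492, against 901, 1042, 888 and 176 under those 4 settings, and over both treatments 838, against 1394, 1516 and 437 with the length index, with CA1 and without low depth. In PF4-treated mice the 59 genes called with age became 98 with the length index, 90 with DESeq2 and 21 with the groups alone. The 6 called with PF4 in old mice became 24 with DESeq2, 22 with CA1, 10 with the choroid plexus covariate or the replicate block, and 0 with the length index, the dentate granule covariate, the groups alone or without low depth. Per kilobase of all exons, levels moved by more than 1 SD to 33.3 (Grm5), 16.0 (Grm7), 1.25 (Grm8), 13.3 (Homer1), 9.45 (Homer2) and 18.5 (Homer3), since the length is larger. Pairs of members passing numbered 13, 13 with DESeq2 normalization and 11 without low depth. No scaling moved the median of all genes by 0.1. The cause of the changes above other than length was not tested.

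The replicate block left the member counts at 1, 0, 1, 0, 0 and 0 and called 453 genes in the vehicle age comparison, 873 over both treatments and 90 in PF4-treated mice (59 without it). Same-numbered libraries of different groups had a median r of -0.006 over 66 pairs, of which 21 were over 0.1. The other 760 pairs had a median r of -0.015, and 229 of them were over 0.1. What a shared number stands for is not given in the labels. The block turned Grm3 to -0.00123 with age under PF4, Grm2 to -0.00441 and Homer1 to -0.0388 with PF4 in old mice, and the interaction of Homer1 to -0.0368 and of Homer3 to 0.00489.

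The other sign changes were in differences that passed no test. With the CA1 covariate, Homer1 was 0.0174 with age in vehicle mice. Under PF4 the age values were 0.00272 for Grm4, 0.0165 for Grm7 and 0.0217 for Homer1, over both treatments 0.0164 for Grm3 and 0.0195 for Homer1, and Homer1 was -0.0197 with PF4 in old mice. With the choroid plexus covariate, Grm5 was -0.0117 with age under PF4, and over both treatments Grm7 was -0.0191, Grm8 0.00535 and Homer2 -0.018. With the length index covariate, Grm7 was 0.00357 and Homer1 0.00499 with age under PF4. With the dentate granule covariate, Grm7 was 0.00138 there, Homer3 0.0142 with PF4 in old mice and its interaction 0.0302, which was 0.00421 with the thalamus covariate and 0.0105 without the 3 libraries of lowest length index, where Grm5 was -0.00105 with age under PF4. Upper-quartile factors gave 0.0001 for Grm7 with age under PF4. Homer1 with PF4 in old mice was -0.00114 with DESeq2, -0.000552 with its size factors, -0.00177 with upper-quartile factors, -0.00204 with the stricter filter and -0.00178 with the groups alone. Without low depth, Homer1 was 0.00968 and Homer3 0.00629 with PF4 in young mice.

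Leaving out 1 library also changed signs. With age under PF4, Grm7 ranged from -0.0194 to 0.00854 and Homer1 from -0.0545 to 0.00762. With PF4 in old mice, Grm2 ranged from -0.0214 to 0.112, Homer1 from -0.0295 to 0.0274 and Homer3 from -0.0712 to 0.00717. With PF4 in young mice, Grm3 ranged from -0.0602 to 0.0028, Grm4 from -0.0815 to 0.0487, Homer1 from -0.0404 to 0.018 and Homer3 from -0.046 to 0.00843. The interaction of Homer1 ranged from -0.0219 to 0.0411 and that of Homer3 from -0.0538 to 0.0313. Grm4 and Grm8 had the fewest reads, down to 20 and 26 in a library.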
